A study of Mus musculus with 8 samples.

Results

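Fatty acid synthesis in 32D cells was followed through 10 genes chosen by name. They are Acly, Acss2, Acaca and Fasn, whose enzymes make acetyl-CoA and build it into palmitate, the elongases Elovl5 and Elovl6, the desaturases Scd1, Scd2 and Fads2, and Srebf1, which encodes a transcription factor of lipid synthesis. All 10 were present among the 56748 genes of the expression table. Of these, 9 passed the filter on low values, which asked for 2 or more libraries with 1 FPKM or more (FPKM is the fragments per kilobase of gene, scaled to the library's depth), and Scd1 did not.

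New fatty acids are made in the cytosol. ATP citrate lyase, encoded by Acly, splits citrate that largely stems from glucose into acetyl-CoA, and the synthetase encoded by Acss2 makes the same product from acetate. Acetyl-CoA carboxylase (Acaca) turns it into malonyl-CoA, fatty acid synthase (Fasn) assembles palmitate, ELOVL6 lengthens palmitate, and the stearoyl-CoA desaturases (Scd1, Scd2) place a double bond to form monounsaturated fatty acids. Fads2 and Elovl5 act mainly on polyunsaturated fatty acids taken up from outside, and Srebf1 is known as an activator of most of these genes.

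32D is a mouse myeloid cell line that needs interleukin-3 to grow. All cells had been transduced with mouse Jak2, either as the wild type (Jak2WT) or as the activating mutant of myeloproliferative neoplasms (Jak2V617F), so the Jak2 genotypes are transgenes beside the cells' own gene. In each background, clones with intact glucose transporters (GLUT1/3 WT) were set against clones in which Slc2a1 and Slc2a3, the genes of GLUT1 and GLUT3, had been cut with CRISPR-Cas9 (GLUT1/3 dKO). Each of the 4 groups held 2 libraries, from clones 1 and 3, and for 24 h before RNA was taken all cells grew at 5 mM glucose and 2 ng/ml IL-3 in a medium that also held glutamine and serum. Each library is 1 single-cell clone, so the p-values measure the spread between clones, and a group of 2 clones cannot be told apart from what those clones happened to share.

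Reads on genes ranged from 16846011 to 48884329 per library. In the dKO clones of Jak2WT, Slc2a1 fell by 2.2 on the log2 scale (limma, adjusted p = 0.000872) and in those of Jak2V617F by 1.90 (limma, adjusted p = 0.000444). Slc2a3 fell by 2.39 in Jak2V617F (limma, adjusted p = 0.0115), and in Jak2WT its difference was -1.71 (limma, adjusted p = 0.0612), where dKO clone 3 kept an FPKM of 49.5 and clone 1 one of 16.0. An edited gene can still be transcribed, so these levels are no direct measure of the knockout. Of 13 myeloid and 32D markers, 7 had an FPKM of at least 1 in both clones of every group, among them Csf2rb, Spi1 and Ptprc, while Kit and Cebpa were listed at 0 in all 8 libraries and Mpo, Elane and Ctsg were at most 0.203. The summed FPKM of 10 erythroid markers differed widely between groups. It was 94.0 to 112 in Jak2WT GLUT1/3 WT, 246 to 291 in Jak2WT GLUT1/3 dKO, 553 to 910 in Jak2V617F GLUT1/3 WT and 2582 to 4679 in Jak2V617F GLUT1/3 dKO, and Alas2 stayed at or below 0.227 in every library. In Jak2WT GLUT1/3 WT the globin gene Hba-a1 (46.7 and 66.3) stood beside Gata1 (30.9 and 28.8), while globin made up most of the sum in the other groups. Gata1 did not follow the order of the sum, at 58.1 and 48.7 in Jak2V617F GLUT1/3 WT and 41.1 and 34.0 in Jak2V617F GLUT1/3 dKO. The summed 13 myeloid and 32D markers ran the other way, from 669 to 742 in Jak2WT GLUT1/3 WT to 304 to 314 in Jak2V617F GLUT1/3 dKO. This sum includes the transduced Jak2, at 258 and 243 in the first group and 152 and 165 in the last. Csf2rb, Csf2rb2, Ptprc and Spi1 were also lower in the last group. Il3ra was higher there (8.89 and 7.99 against 6.83 and 6.61), and Prtn3 overlapped (4.92 and 10.2 against 7.49 and 9.82). In bulk RNA, fewer cells of a type and less RNA of a gene per cell cannot be told apart, and the part of these markers in the results below was not tested. Markers of T and B cells summed to at most 0.712, and those of adipocytes and hepatocytes, the tissues best known for fatty acid synthesis, to at most 0.147. Of the fibroblast and endothelial markers, 1 of 6 had an FPKM of at least 1 in both clones of any group.

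Scd2 was the most abundant of the 10 transcripts in every library except the Jak2V617F GLUT1/3 dKO clones, where Fads2 and, by less than 1 FPKM, Acly exceeded it. In Jak2WT GLUT1/3 WT its FPKM of 347 and 328 placed it 98th and 106th among all genes of those libraries. Fads2 followed with 120 and 123 and Acly with 75.3 and 79.4, whereas Acaca (8.24 and 9.14) and Acss2 (7.10 and 7.68) were the lowest of the 9. FPKM divides by gene length, so these levels can be set side by side between genes within a library.

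Scd1, the isoform best known from liver and fat, was next to undetected. It had 2 reads in Jak2WT GLUT1/3 WT clone 3, 1 read in Jak2V617F GLUT1/3 WT clone 1 and 0 in the other 6 libraries. A count of 0 allows up to 3 reads, which equals an FPKM of 0.0124 to 0.0243 in these 6 libraries, and this limit covers counting error only. Set against this limit of each library, Scd2 was at least 2442-fold higher in all 6 and at least 22383-fold higher in Jak2WT GLUT1/3 WT clone 1. How reads matching both paralogs were counted is not given in the sources used here.

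**Figure D1:**
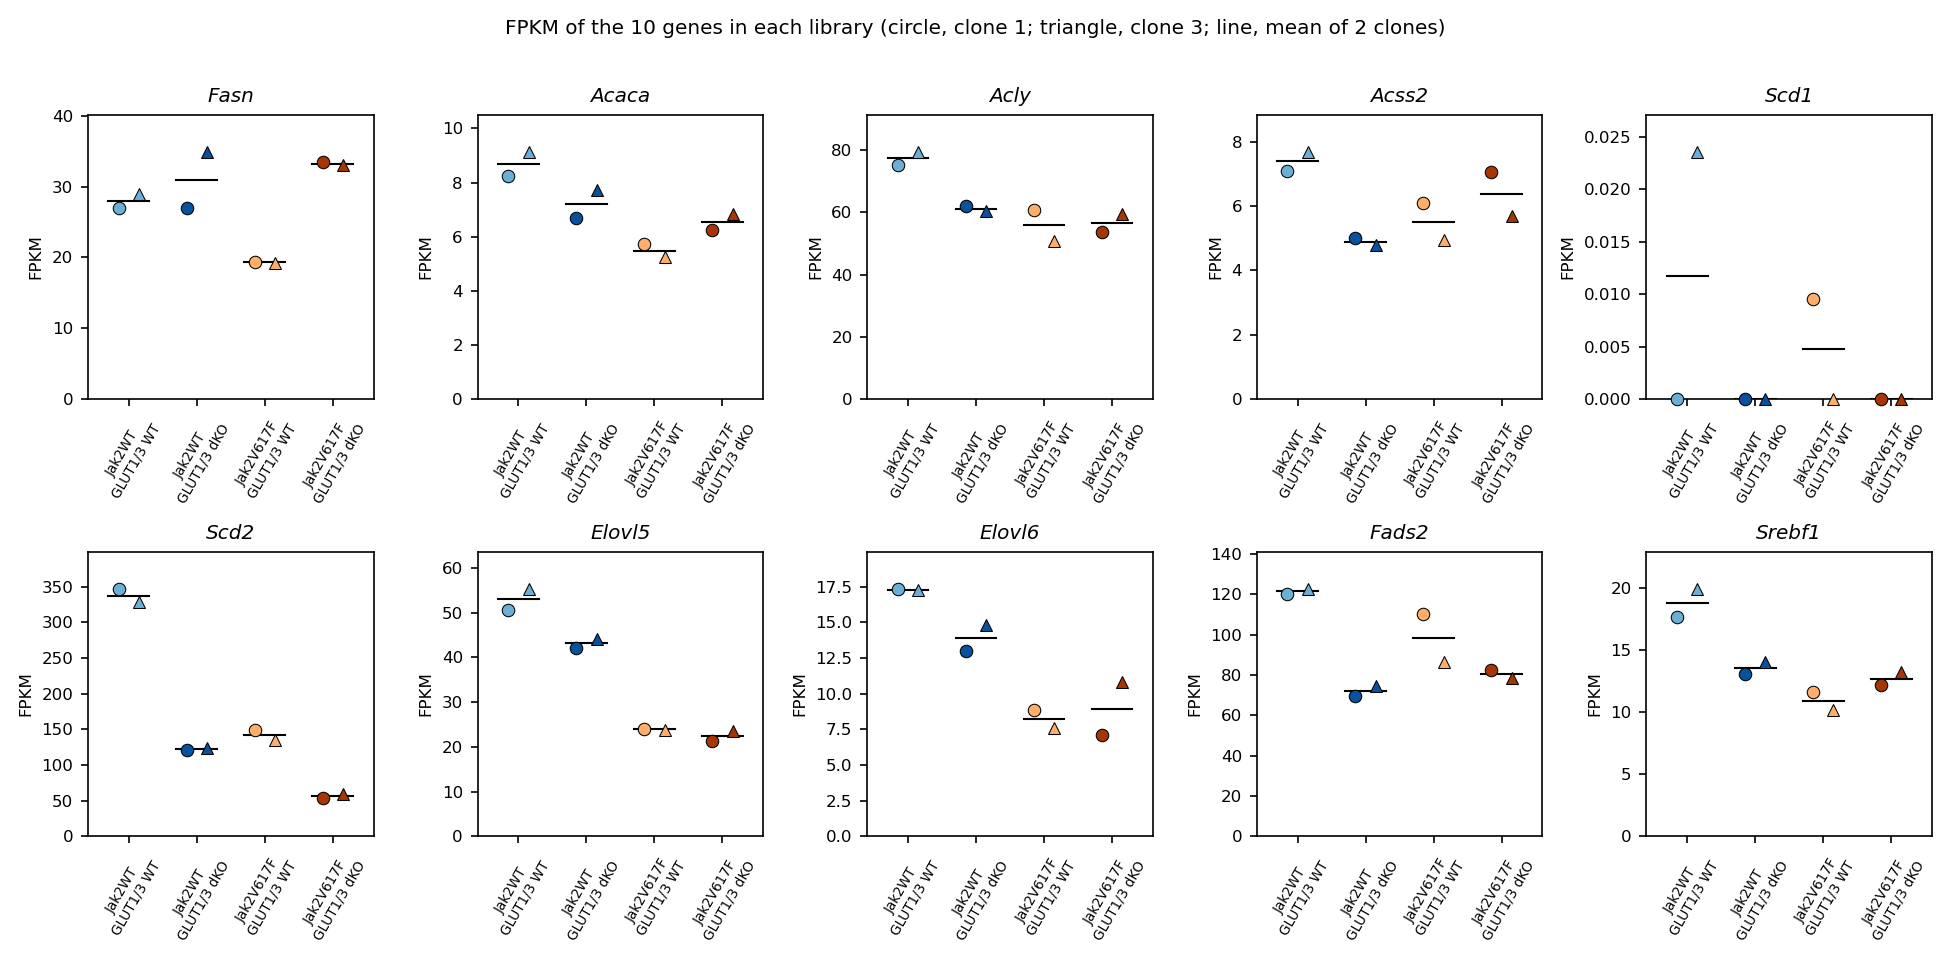
FPKM (linear axes that start at 0) of each of the 10 genes in the 8 libraries, by group, with circles for clone 1, triangles for clone 3 and a line at the mean of the 2 clones. Scd2 steps down from 347 and 328 in Jak2WT GLUT1/3 WT to 53.2 and 59.4 in Jak2V617F GLUT1/3 dKO, Fasn is lowest in Jak2V617F GLUT1/3 WT at 19.4 and 19.2, and Scd1 does not exceed 0.0236.

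In GRCm39, the build of the expression table, 4 of the 10 genes lie on chromosome 11: Fasn at chr11:120696672-120715373 and Acly at chr11:100367179-100418826 and Srebf1 at chr11:60089915-60113407, all on the reverse strand, and Acaca at chr11:84020498-84292477 on the forward strand. Scd2, at chr19:44282113-44295303 on the forward strand, and Scd1, at chr19:44382894-44396318 on the reverse strand, are neighbours, and Fads2 lies on the same chromosome at chr19:10040129-10079110, reverse strand. Acss2 is at chr2:155359868-155427644, Elovl6 at chr3:129326004-129432144 and Elovl5 at chr9:77824646-77891801, all on the forward strand. RefSeq promoter windows (GRCm38.p6) were at hand for 8 of the 10 genes, and Scd1 and Scd2 had no entry. The 250 bases before the start site are shown for Fasn, which rose in the Jak2V617F GLUT1/3 dKO clones, for Elovl5, which was lower in Jak2V617F, and for Fads2 and Acss2, which were lower in the Jak2WT GLUT1/3 dKO clones. They are Fasn at chr11:120824548-120824797 (reverse strand), Elovl5 at chr9:77917115-77917364 (forward), Fads2 at chr19:10101504-10101753 (reverse) and Acss2 at chr2:155517793-155518042 (forward), each written in the direction of the gene. Capitals mark matches on either strand to the CCAAT box (CCAAT), the E-box (CACGTG), the GC box (GGGCGG) and a sterol regulatory element core (TCACNCCAC).
Fasn: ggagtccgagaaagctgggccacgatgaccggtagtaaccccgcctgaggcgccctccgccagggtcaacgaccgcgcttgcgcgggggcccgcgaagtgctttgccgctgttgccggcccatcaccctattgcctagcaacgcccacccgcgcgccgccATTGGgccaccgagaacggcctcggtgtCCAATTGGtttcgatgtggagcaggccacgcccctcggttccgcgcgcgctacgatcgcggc
Elovl5: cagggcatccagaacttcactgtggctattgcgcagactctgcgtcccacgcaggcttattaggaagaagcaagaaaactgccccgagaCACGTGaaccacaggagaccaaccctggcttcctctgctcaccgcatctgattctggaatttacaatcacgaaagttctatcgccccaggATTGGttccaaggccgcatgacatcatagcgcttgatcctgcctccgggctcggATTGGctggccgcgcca
Fads2: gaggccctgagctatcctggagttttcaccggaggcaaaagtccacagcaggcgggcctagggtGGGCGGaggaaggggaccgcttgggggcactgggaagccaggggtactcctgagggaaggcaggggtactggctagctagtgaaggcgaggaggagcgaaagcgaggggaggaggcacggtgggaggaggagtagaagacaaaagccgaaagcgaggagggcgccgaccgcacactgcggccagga
Acss2: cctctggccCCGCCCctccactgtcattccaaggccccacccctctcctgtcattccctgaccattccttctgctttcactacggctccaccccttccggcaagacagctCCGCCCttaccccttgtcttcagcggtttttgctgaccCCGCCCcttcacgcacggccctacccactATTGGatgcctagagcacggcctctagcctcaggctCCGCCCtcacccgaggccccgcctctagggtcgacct
Fasn held 3 CCAAT boxes, at -90, -62 and -59 from the start site, of which the last pair overlap, Elovl5 held 2 at -71 and -17 and an E-box at -161, Fads2 held 1 GC box at -186, and Acss2 held 4 GC boxes and a CCAAT box at -73. Among all 32851 RefSeq windows of this length, 33.9% held a CCAAT box, 6.02% an E-box, 32.7% a GC box and 1.05% the sterol element core. None of the 10 windows of these 8 genes matched the sterol element core as spelled here. These matches describe letters, and nothing about binding was measured.

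The clearest difference among the 10 genes was in Scd2, which encodes the stearoyl-CoA desaturase isoform expressed in these cells. In Jak2WT its FPKM was 347 and 328 with intact transporters and 121 and 124 in the dKO clones, followed by 150 and 136 in Jak2V617F GLUT1/3 WT, and 53.2 and 59.4 in Jak2V617F GLUT1/3 dKO. No 2 groups overlapped, which with 2 clones each is common (the compared groups were apart for 60.6% to 69.4% of all genes tested, depending on the comparison), the highest and the lowest group means were 6.0-fold apart, and both dKO and Jak2V617F went with less Scd2. The dKO clones fell by 1.46 on the log2(FPKM + 1) scale in Jak2WT (SE 0.0909, limma adjusted p = 0.00067) and by 1.33 in Jak2V617F (limma, adjusted p = 0.000383). Among all 11818 genes tested, this was the 30th largest decrease in Jak2WT and the 111th in Jak2V617F. Jak2V617F clones lay below Jak2WT clones by 1.24 with intact transporters (limma, adjusted p = 0.000357) and by 1.11 without (limma, adjusted p = 0.000594). The dKO effects in the 2 backgrounds differed by 0.13 (95% confidence interval -0.17 to 0.43, limma adjusted p = 0.539), so a difference in either direction of up to that size was not resolved. With each library left out this difference ran from 0.051 to 0.21. All 4 decreases of Scd2 held with each library left out in turn and at every other setting tried.

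How far Scd2 departed from the rest of the pathway showed within single libraries. It made up 51.7% and 49.1% of the summed FPKM of the 10 genes in the Jak2WT GLUT1/3 WT clones, 33.6% and 32.7% in Jak2WT GLUT1/3 dKO, 37.7% and 39.4% in Jak2V617F GLUT1/3 WT, and 19.2% and 20.5% in Jak2V617F GLUT1/3 dKO. The ratio of Scd2 to Fasn, the desaturase to the synthase whose product it modifies after elongation, was 12.8 and 11.3 in Jak2WT GLUT1/3 WT and 1.59 and 1.80 in Jak2V617F GLUT1/3 dKO. Scd2 stood above Fads2 in 6 libraries, with ratios of 1.36 to 2.89, and below it in both Jak2V617F GLUT1/3 dKO clones, at 0.646 and 0.759. These ratios do not depend on the scaling of a library. Without Scd2, the other genes summed to 323 and 340 in Jak2WT GLUT1/3 WT and to 208 to 255 in the other 6 libraries. The group with the most Scd2 had the lowest summed erythroid markers (94.0 to 112) and the group with the least Scd2 the highest (2582 to 4679). The groups between them did not follow this order, since Jak2V617F GLUT1/3 WT had more Scd2 (150 and 136) and more erythroid signal (553 to 910) than Jak2WT GLUT1/3 dKO (121 and 124, and 246 to 291), and the markers' part in the Scd2 result was not tested.

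**Figure D2:**
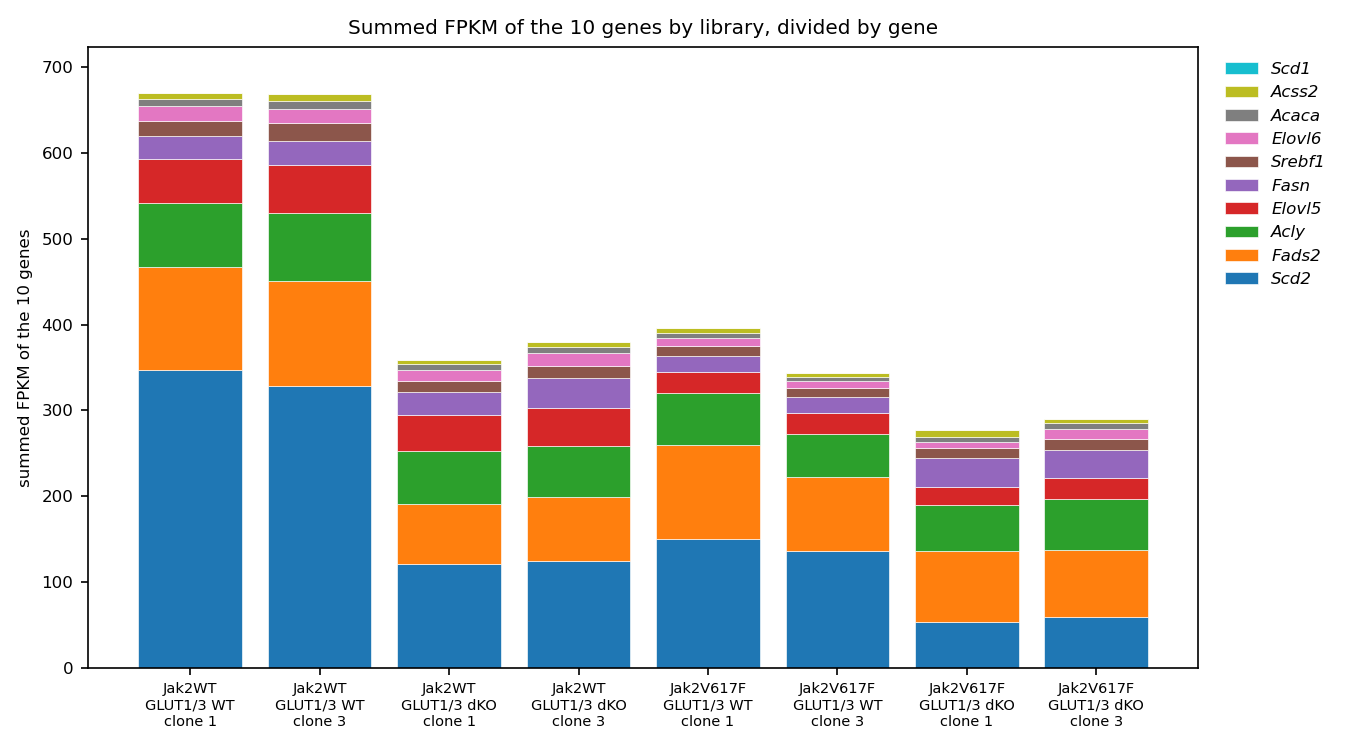
Summed FPKM of the 10 genes in each library (bars from 0), divided by gene. Scd2, the lowest segment, shrinks from 51.7% and 49.1% of the bar in Jak2WT GLUT1/3 WT to 19.2% and 20.5% in Jak2V617F GLUT1/3 dKO, and the bars fall from 670 and 669 to 277 and 290.

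Loss of GLUT1/3 in the Jak2WT background asks what the pathway does when glucose uptake is cut without the oncogene. Of the 9 genes tested, 4 fell (Scd2, Fads2, Acss2 and Srebf1) and 0 rose, beside 6.06% of all genes lower and 7.62% higher in this comparison. The median over the 9 was -0.33 and over all genes 0.0082, and 8 of 9 had a negative log2 fold change. At an unadjusted p under 0.05, 7 were lower and 0 higher (here and below, the share of all genes at that level is not given). Limma-voom on recovered reads called 6 lower and 0 higher, beside 1051 and 1341 of all 11818 genes.

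Fads2, the desaturase that acts at the entry of polyunsaturated fatty acid synthesis, went from 120 and 123 FPKM to 69.5 and 74.4. Both dKO values are under both GLUT1/3 WT values, a decrease by 0.75 on the log2 scale (SE 0.117, limma adjusted p = 0.0106). Acss2, which lets cells use acetate, was at 7.10 and 7.68 and then at 5.02 and 4.78, with no overlap, and fell by 0.51 (limma, adjusted p = 0.0377). Srebf1 was at 17.7 and 19.9 against 13.1 and 14.0, again without overlap, and fell by 0.44 (limma, adjusted p = 0.0299). The calls of Fads2, Acss2 and Srebf1 were each lost when any of the 4 Jak2WT libraries was left out, at adjusted p-values of up to 0.0757, 0.182 and 0.173, and those of Acss2 and Srebf1 also with no filter on low values (0.109 and 0.0752). Acly (75.3 and 79.4 against 62.0 and 60.4 FPKM, adjusted p = 0.0763 in limma), Elovl5 (adjusted p = 0.0612 in limma), Acaca and Elovl6 did not pass the threshold, with log2 differences of -0.33, -0.29, -0.24 and -0.30. Acly was called without either Jak2V617F GLUT1/3 WT clone and Elovl5 without either Jak2V617F GLUT1/3 dKO clone (adjusted p of 0.0495 to 0.0499), libraries that enter these differences only through the shared spread, and Acaca was -0.15 without dKO clone 1. Fasn was at 27.0 and 29.0 FPKM with transporters and at 27.0 and 34.9 without them, so its groups overlapped, and its difference of 0.13 (95% confidence interval -0.15 to 0.41) became -0.049 without dKO clone 3.

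With the same knockout in the Jak2V617F background Fasn rose and Scd2 fell, and the other 7 genes did not pass the threshold. These counts of 1 and 1 stand beside 13.7% of all genes higher and 16.2% lower and are no result about the 9 genes as a set. The median over the 9 was 0.087 and over all genes -0.019. Fasn was at 19.4 and 19.2 FPKM in the GLUT1/3 WT clones and at 33.5 and 33.1 in the dKO clones, which do not overlap. This is a 1.72-fold difference of the means and a log2 fold change of 0.75 (SE 0.118, limma adjusted p = 0.00407), and it lay between 0.75 and 0.76 with any 1 library left out. Fads2 was lower in the dKO clones (82.2 and 78.3 against 110 and 86.6 FPKM) with a log2 difference of -0.28 that did not pass (limma, adjusted p = 0.11), and that was -0.45 without GLUT1/3 WT clone 3 (called, limma adjusted p = 0.0222) and -0.11 without GLUT1/3 WT clone 1 (0.446). Acaca differed by 0.22, Srebf1 by 0.21 and Acss2 by 0.18, none past the threshold. With each library left out these ran from 0.16 to 0.27 for Acaca, from 0.12 (without GLUT1/3 WT clone 3) to 0.30 for Srebf1 and from 0.049 (without dKO clone 1) to 0.31 (without dKO clone 3) for Acss2. Elovl5 differed by -0.088 (by -0.15 to -0.021 with each library left out and by 0.0017 with the libraries scaled to the same total), Elovl6 by 0.087 and Acly by 0.024. Elovl6 was at 7.07 and 10.8 FPKM in the 2 dKO clones, around its 8.89 and 7.56 in the GLUT1/3 WT clones. The 559 genes tested on chromosome 3, where Elovl6 lies, had a median of -0.26 in this comparison, and the 995 on chromosome 11, where Fasn lies, a median of 0.085.

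**Figure D3:**
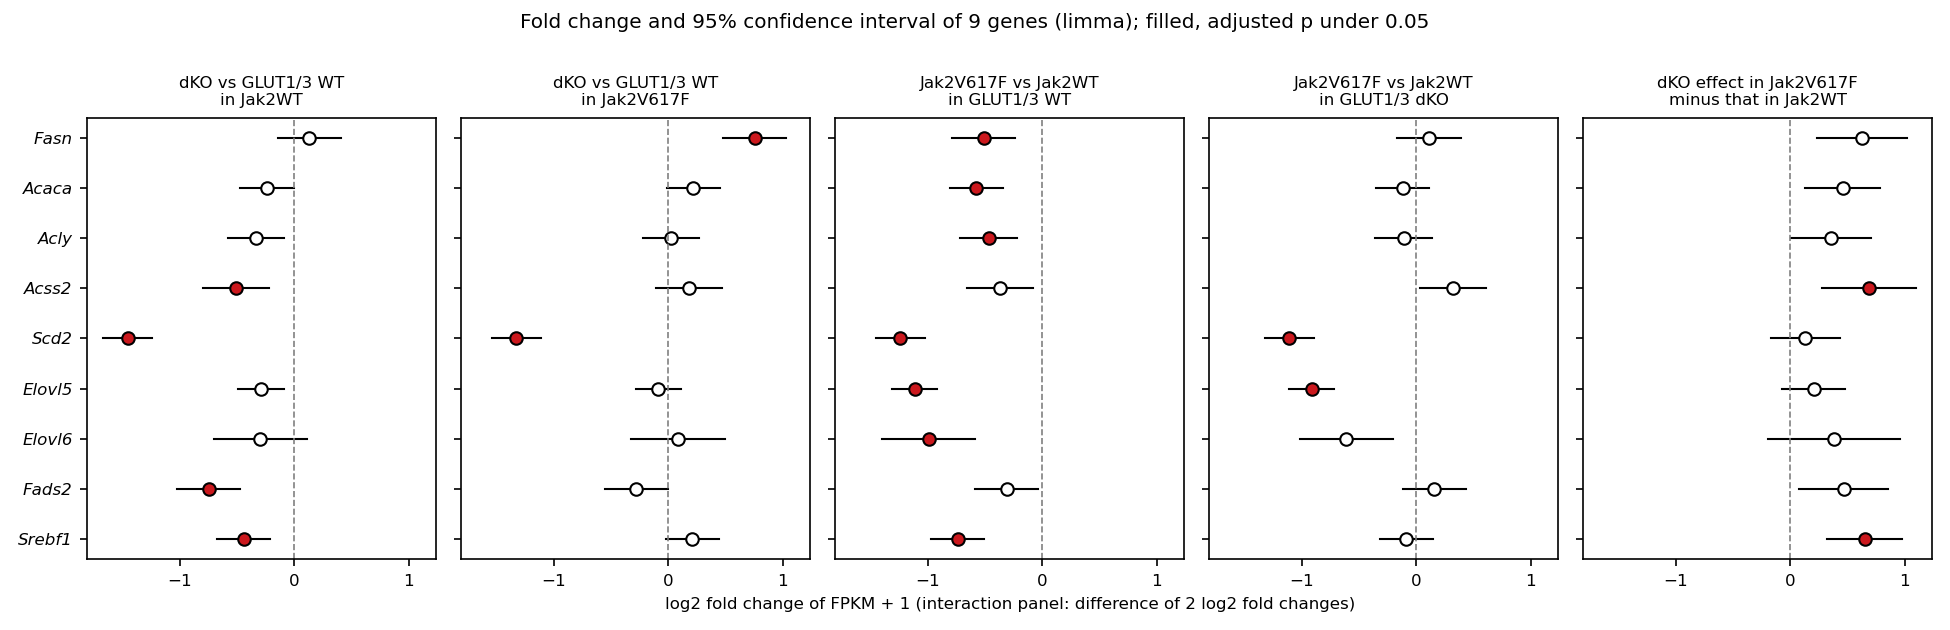
Log2 fold change of FPKM + 1 (points) with 95% confidence intervals (lines) for the 9 genes tested in the 4 comparisons, and the difference of the 2 dKO effects in the last panel, with filled points for an adjusted p under 0.05. Scd2 lies at -1.46, -1.33, -1.24 and -1.11 in the 4 comparisons, all 9 points of the third panel are below 0, and all 9 of the last panel are above 0.

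Whether the dKO effect differed between the backgrounds was tested by the interaction, the dKO effect in Jak2V617F minus that in Jak2WT. It was called higher for Srebf1 and Acss2 and lower for 0 of the 9, beside 4.72% of all genes higher and 5.91% lower. Srebf1 gave 0.65 (SE 0.14, limma adjusted p = 0.0324), from a dKO effect of -0.44 in Jak2WT and 0.21 in Jak2V617F. Acss2 gave 0.69 (SE 0.175, limma adjusted p = 0.0488), from -0.51 and 0.18. All 9 estimates were above 0, with a median of 0.46 against -0.039 over all genes, and 6 had an unadjusted p under 0.05 while 0 were lower at that level. Limma-voom called 4 higher and 0 lower, beside 790 and 1000 of all 11818 genes. Scaling the libraries to the same total, which moved the median of all genes in this comparison to 0.12, called 6 and 0, beside 1177 and 393. Fasn, at 0.62, did not pass (limma, adjusted p = 0.0568) and with each library left out ran from 0.44 (without Jak2WT GLUT1/3 dKO clone 1) to 0.80 (without clone 3 of that group, called, limma adjusted p = 0.0328). Both calls were sensitive to the settings. That of Acss2 was lost without any 1 library other than Jak2V617F GLUT1/3 dKO clone 3, and that of Srebf1 without any 1 other than Jak2V617F GLUT1/3 dKO clone 1, at adjusted p-values of up to 0.154 and 0.121, and with no filter on low values at 0.129 and 0.0804. The call of Acss2 was also lost with a pseudocount of 0.1 (adjusted p = 0.0527), without a trend (0.0615) and with a replicate block (0.0521), and its difference was 0.56 to 0.82 with each library left out.

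Jak2V617F against Jak2WT among clones with intact transporters compares cells with the mutant kinase to cells with the wild type. The level of Jak2 differed too, at 140 and 139 FPKM in Jak2V617F against 258 and 243 in Jak2WT, and its part was not tested. Here 7 of the 9 genes fell (Scd2, Elovl5, Elovl6, Srebf1, Acaca, Fasn and Acly) and 0 rose, beside 14.9% of all genes lower and 15.3% higher. All 9 log2 fold changes were negative, with a median of -0.58 against 0.0076 over all genes. All 9 were lower and 0 higher at an unadjusted p under 0.05. Limma-voom called 9 lower and 0 higher, beside 1953 and 1894 of all 11818 genes. Scaling to the same total moved the median of all genes to -0.12 and also called 9 lower, beside 2930 of all genes. This comparison, the knockout comparison in Jak2WT and the interaction share the Jak2WT GLUT1/3 WT libraries, so they are not independent of each other.

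The elongases stood out beside Scd2. Elovl5 was at 50.7 and 55.3 FPKM in Jak2WT and at 24.0 and 23.9 in Jak2V617F with no overlap, a 2.22-fold difference of the means. It fell by 1.12 on the log2 scale (SE 0.0841, limma adjusted p = 0.000381). Elovl6 went from 17.4 and 17.3 to 8.89 and 7.56 and fell by 0.99 (limma, adjusted p = 0.00614). The ratio of Elovl5 to Elovl6 was 2.92 and 3.20 in the Jak2WT clones and 2.70 and 3.15 in the Jak2V617F clones, so these ratios overlapped between the backgrounds. Srebf1 was at 17.7 and 19.9 against 11.6 and 10.1 FPKM, without overlap, and fell by 0.74 (limma, adjusted p = 0.00247). The estimates were smaller for the enzymes of the synthesis itself, and differences between genes were not tested. Acaca was at 8.24 and 9.14 against 5.72 and 5.26, a decrease by 0.58 (limma, adjusted p = 0.00575), and Fasn at 27.0 and 29.0 against 19.4 and 19.2, a decrease by 0.51 (limma, adjusted p = 0.0165). Acly, at 75.3 and 79.4 against 60.9 and 50.7, fell by 0.47 (limma, adjusted p = 0.0148). The call of Fasn was lost without any 1 of the 4 libraries compared (adjusted p of up to 0.0999) and with no filter on low values (0.0512), and that of Acly without Jak2WT clone 1, Jak2WT clone 3 or Jak2V617F clone 3 (adjusted p of up to 0.0933). Acss2 (-0.37, limma adjusted p = 0.0582) and Fads2 (-0.31, limma adjusted p = 0.083) did not pass the threshold. Without Jak2V617F GLUT1/3 WT clone 1 both were called, at -0.50 and -0.48 (adjusted p = 0.0495 and 0.0201), and without clone 3 of that group they were -0.24 and -0.14 (0.237 and 0.313). Acss2 was also called without either Jak2V617F GLUT1/3 dKO clone (0.0389 and 0.0387).

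Among the dKO clones the same comparison called 2 of the 9 genes, Scd2 and Elovl5, both lower, beside 9.96% of all genes lower and 7.12% higher. No gene was higher, while 1 (Acss2) was at an unadjusted p under 0.05. Limma-voom called 0 higher and 3 lower, beside 1096 and 1591 of all 11818 genes. Elovl5 was at 42.1 and 44.2 FPKM in Jak2WT GLUT1/3 dKO and at 21.4 and 23.6 in Jak2V617F GLUT1/3 dKO, and fell by 0.91 (SE 0.0841, limma adjusted p = 0.000968). Both of its Jak2V617F decreases held with each library left out and at every other setting. Elovl6 was at 13 and 14.8 against 7.07 and 10.8, a difference of -0.61 just outside the threshold (limma, adjusted p = 0.0527), and passed in limma-voom (-0.69, adjusted p = 0.0134). It was -0.88 without Jak2V617F GLUT1/3 dKO clone 3 (called, limma adjusted p = 0.00678) and -0.33 without clone 1 of that group (0.147). Chromosome 3 had a median of -0.19 in this comparison. Fasn, Acaca, Acly and Srebf1 differed by 0.11, -0.12, -0.11 and -0.088, with 95% confidence intervals that reached no further than -0.36 and 0.39. Estimates this near 0 moved by over 1.5 times with single libraries left out, to between -0.068 and 0.29 for Fasn, -0.21 and -0.03 for Acaca, -0.18 and -0.038 for Acly and -0.14 and -0.035 for Srebf1. This comparison shares its libraries with the knockout comparisons, so it is not independent of them.

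The order of the group means differed between the genes. Scd2 and Fads2 were highest in Jak2WT GLUT1/3 WT and next in Jak2V617F GLUT1/3 WT, while Elovl5, Elovl6, Acaca, Acly and Srebf1 had Jak2WT GLUT1/3 dKO in the second place. Elovl5 split mainly by Jak2, at 42.1 to 55.3 FPKM in the 4 Jak2WT libraries and 21.4 to 24.0 in the 4 Jak2V617F libraries. Fads2 was lowest in Jak2WT GLUT1/3 dKO, as was Acss2, and Fasn alone was highest in Jak2V617F GLUT1/3 dKO. That Fasn mean of 33.3 ± 0.273 (SD, n = 2) and the Jak2WT GLUT1/3 dKO mean of 31.0 ± 5.58 (SD, n = 2) did not differ beyond their spread.

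The wider pathway was described with 75 further genes in 9 lists, of which 54 passed the filter. Of these 54, 2 rose and 7 fell with dKO in Jak2WT, beside 7.62% of all genes higher and 6.06% lower. With dKO in Jak2V617F 5 rose and 10 fell, beside 13.7% and 16.2% of all genes. With Jak2V617F 4 rose and 14 fell among GLUT1/3 WT clones, beside 15.3% and 14.9%, and 5 rose and 10 fell among dKO clones, beside 7.12% and 9.96%. Their medians were -0.15, -0.084, -0.11 and -0.15, and those of all genes 0.0082, -0.019, 0.0076 and -0.023. In the interaction 2 were higher and 2 lower, beside 4.72% and 5.91% of all genes, with a median of 0.052 against -0.039. Several of these counts are near the share of all genes, so they are no result about the lists. With 1 library left out, the 9 calls with dKO in Jak2WT became 0 without either Jak2WT GLUT1/3 WT clone, 2 without dKO clone 1 and 3 without dKO clone 3. The 18 calls among GLUT1/3 WT clones became 7 without either Jak2WT clone, and the 15 among dKO clones became 1 without Jak2WT clone 1, 6 without Jak2WT clone 3 and 6 without Jak2V617F clone 1.

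Fads1, which acts after Fads2 on polyunsaturated fatty acids and is its neighbour in the genome, was lower in the dKO clones of both backgrounds. In Jak2WT its FPKM was 87.5 and 91.0 with intact transporters and 52.5 and 53.5 in the dKO clones, beside 96.1 and 83.8 in Jak2V617F GLUT1/3 WT and 51.9 and 54.0 in Jak2V617F GLUT1/3 dKO. It fell by 0.74 (limma, adjusted p = 0.00576) and by 0.75 (limma, adjusted p = 0.00142), and the effects differed by -0.011 (95% confidence interval -0.30 to 0.28). Between Jak2V617F and Jak2WT it differed by 0.0084 with intact transporters and by -0.0025 without them, with 95% confidence intervals that reached no further than -0.21 and 0.21. The call in Jak2WT was lost without GLUT1/3 WT clone 1 or clone 3, at adjusted p-values of 0.0502 and 0.0521. Acsl3, which activates long-chain fatty acids, was lower in all 4 comparisons, by 0.65 and 0.55 with dKO and by 0.67 and 0.57 with Jak2V617F (limma, adjusted p of 0.0174, 0.0145, 0.00672 and 0.0196). Idh1, a cytosolic source of NADPH, was also lower in all 4, by 0.97 and 0.78 with dKO and by 0.67 and 0.48 with Jak2V617F (limma, adjusted p of 0.0078, 0.00586, 0.0101 and 0.0489). Its difference among dKO clones ran from -0.66 to -0.31 with each library left out, and its difference among GLUT1/3 WT clones was not followed in those fits. Each of the 4 calls of Acsl3 was lost without some library. With dKO in Jak2WT this was any 1 of the 4 Jak2WT libraries (adjusted p of up to 0.109), with dKO in Jak2V617F GLUT1/3 WT clone 1 or dKO clone 1 (0.0704 and 0.0565), among GLUT1/3 WT clones Jak2WT clone 3 (0.0507), and among dKO clones Jak2WT clone 1, Jak2WT clone 3 or Jak2V617F clone 1 (up to 0.102). The call of Idh1 with dKO in Jak2WT was lost without GLUT1/3 WT clone 1 or 3 (0.0613 and 0.0601), and that among dKO clones without any 1 library other than Jak2WT GLUT1/3 dKO clone 3 (up to 0.242).

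Among 9 tested genes of SREBP processing and lipogenic regulation, Insig2, whose protein holds the SREBP precursor in the endoplasmic reticulum, fell with dKO by 0.60 in Jak2WT (limma, adjusted p = 0.0094) and by 0.72 in Jak2V617F (limma, adjusted p = 0.00168). The call in Jak2WT was lost without GLUT1/3 WT clone 1, GLUT1/3 WT clone 3 or dKO clone 1 (adjusted p of up to 0.0733). Insig1, a related retention factor that is itself a known SREBP target, was lower in Jak2V617F, by 0.80 among GLUT1/3 WT clones (limma, adjusted p = 0.00592) and by 0.60 among dKO clones (limma, adjusted p = 0.0264), and the latter call was lost with no filter on low values (0.081) and without any 1 library other than the Jak2V617F GLUT1/3 WT clones (up to 0.116). The proteases that release SREBP, Mbtps1 and Mbtps2, fell with dKO in Jak2V617F by 0.55 and 0.87 (limma, adjusted p of 0.00264 and 0.000695), and their interactions were -0.65 and -0.70 (limma, adjusted p of 0.0177 and 0.0176). These are opposite in sign to the interaction of Srebf1, and both calls were lost without Jak2WT GLUT1/3 WT clone 1 or 3, Jak2WT GLUT1/3 dKO clone 1 or Jak2V617F GLUT1/3 WT clone 1 (adjusted p of up to 0.0813). Mbtps2 was at 10.6 and 10.2 FPKM in Jak2V617F GLUT1/3 WT and at 5.09 to 7.08 in the other 6 libraries. Lpin1, a phosphatidate phosphatase and regulator of lipid genes, fell with dKO in Jak2WT by 0.63 (limma, adjusted p = 0.00949) and had an interaction of 0.55 (limma, adjusted p = 0.0424), of which the first was lost without any 1 of the 4 Jak2WT libraries (adjusted p of up to 0.0785) and the second without any 1 of the 8 libraries (up to 0.147).

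Genes that feed or partner the synthesis differed in direction. Slc25a1, the mitochondrial citrate carrier, was lower in Jak2V617F by 0.70 among GLUT1/3 WT clones and by 0.63 among dKO clones (limma, adjusted p of 0.0112 and 0.0253). Mpc2, a subunit of the mitochondrial pyruvate carrier, was higher in Jak2V617F by 0.87 and 1.26 (limma, adjusted p of 0.0148 and 0.00646). Hlcs, which attaches biotin to carboxylases such as ACACA, rose with dKO by 0.55 and 0.43 and was lower in Jak2V617F by 0.36 and 0.48 (limma, adjusted p of 0.00986, 0.00902, 0.0167 and 0.01). Acacb, the carboxylase isoform tied to mitochondria, rose with dKO in Jak2WT by 0.52 (limma, adjusted p = 0.0187), and that call was lost without any 1 of the 4 Jak2WT libraries. Hacd2, a dehydratase of the elongation cycle, was lower in Jak2V617F by 0.69 and 0.44 and rose with dKO in Jak2V617F by 0.54 (limma, adjusted p of 0.00178, 0.0138 and 0.00371). Elsewhere in this cycle, Tecr fell with dKO in Jak2V617F by 0.50 (limma, adjusted p = 0.0143). Among dKO clones Hacd4 was higher in Jak2V617F by 0.51 and Hacd3 lower by 0.63 (limma, adjusted p of 0.0131 and 0.0077). With intact transporters Hsd17b12 and Hacd3 were lower in Jak2V617F by 0.41 and 0.33 (limma, adjusted p of 0.0313 and 0.0443). Agpat3, an acyltransferase of phospholipid synthesis, had the largest positive differences among the named pathway genes, from 2.33 and 2.55 FPKM in Jak2WT GLUT1/3 WT to 10.2 and 8.23 in Jak2V617F GLUT1/3 WT and to 12.3 and 12.6 in Jak2V617F GLUT1/3 dKO. Its Jak2V617F effects were 1.56 and 2.35 (limma, adjusted p of 0.000232 and 8.9e-05) and its interaction 0.78 (limma, adjusted p = 0.0247), which was lost without any 1 of the 4 Jak2WT libraries (adjusted p of up to 0.0973). Several of these calls were lost with fewer libraries, where the difference itself was, for example, 0.51 to 0.59 for Hlcs with dKO in Jak2WT and -0.47 to -0.41 for Hacd2 among dKO clones. The rise of Hlcs with dKO in Jak2WT was lost without any 1 of the 4 Jak2WT libraries (adjusted p of up to 0.0795), and its rise in Jak2V617F in the fit of only the groups compared (0.0662). Among GLUT1/3 WT clones, the calls of Slc25a1, Mpc2 and Hlcs were lost without either Jak2WT clone, that of Mpc2 also without Jak2V617F clone 1 and that of Hlcs also without Jak2V617F clone 3 (adjusted p of 0.0502 to 0.0957). Among dKO clones, those of Slc25a1, Mpc2, Hlcs and Hacd2 were lost without Jak2WT clone 1, and those of Slc25a1 and Hacd2 also without Jak2WT clone 3 or Jak2V617F clone 1 (adjusted p of 0.0529 to 0.142). With no filter on low values, the calls of Acacb and Acsl3 with dKO in Jak2WT, of Mpc2 among GLUT1/3 WT clones, of Slc25a1, Acsl3 and Idh1 among dKO clones, and of Agpat3 and Lpin1 by the interaction were lost (adjusted p of 0.0607 to 0.129).

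**Figure D4:**
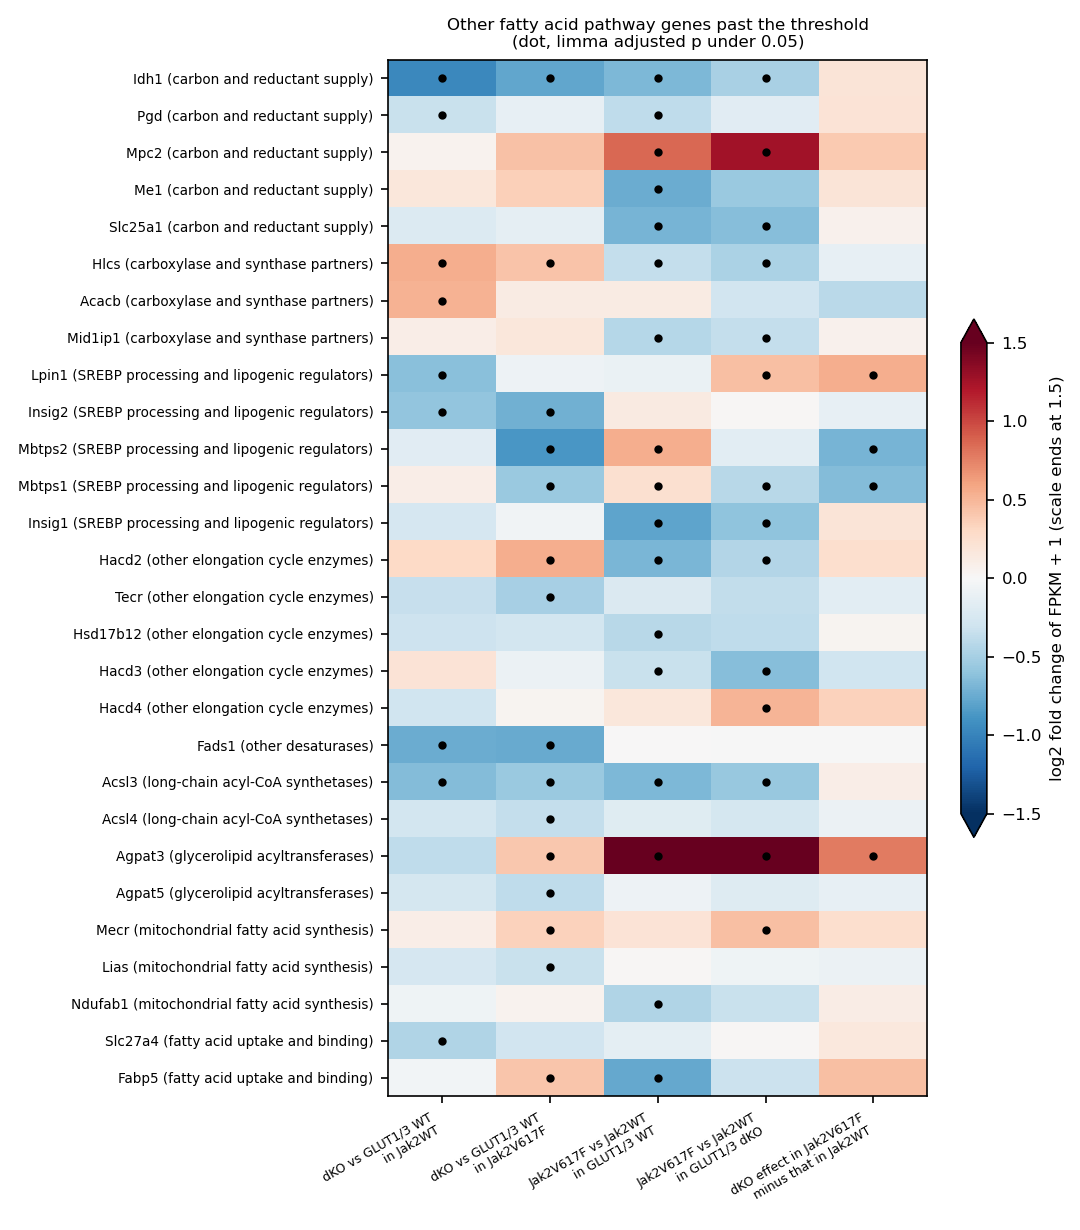
Log2 fold change of FPKM + 1 (colour, with the scale ending at 1.5 in both directions) of other pathway genes past the threshold in at least 1 column (rows, with their list) in the 4 comparisons and the interaction (columns), with a dot where the limma adjusted p was under 0.05. Fads1 is lower in both dKO columns, at -0.74 and -0.75, Acsl3 and Idh1 are lower in the first 4 columns, and Agpat3 is highest in the Jak2V617F columns at 1.56 and 2.35.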

How the data were processed

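RNA of 8 libraries (2 single-cell clones in each of 4 groups) was sequenced, and groups were taken from the sample labels. For the deposited FPKM values, the authors trimmed reads (fastp 1.0.1), aligned them to mm39 (HISAT2 2.2.1) and counted them per gene (featureCounts 2.0.6). The total by which FPKM was scaled, the strand setting, the annotation version and the handling of reads shared by paralogs are not given in the sources used here. All 8 library columns were used and 0 were left unmapped.

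The 11818 genes that reached 1 FPKM in 2 or more libraries were tested on log2(FPKM + 1) with limma 3.58.1 in R 4.3.3, with 4 group means in one fit and a trend in the empirical Bayes step (4 residual and 3.34 prior degrees of freedom). Benjamini-Hochberg adjusted p-values cover all genes tested, with a threshold of 0.05. Fold changes on this scale understate those of low genes. With 2 clones against 2, an exact permutation test could not go below p = 0.33, so none was used. In each library 100% of the products of FPKM and gene length were multiples of the value of 1 read (within 0.01 reads), so whole reads were recovered (16846011 to 48884329 per library) for depth, for the limit on Scd1 and for limma-voom as an alternative. Other alternatives were a pseudocount of 0.1, other filters, no trend, other library scalings, fits of only the groups compared, a replicate block and each library left out.

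The 10 genes, the lists of pathway and marker genes and the tests were chosen with earlier results of these data known. Of the other pathway genes, 1 of 75 had no match in the table. Those named are up to 3 per list and comparison with the largest change past the threshold and no overlap between groups, and for the interaction those past the threshold. Some items that the rule or the labels name are not reported here. Figures were made with matplotlib 3.10.9 in Python 3.11.15.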

Additional observations from a re-analysis of the deposited data

Results flagged for a closer look

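The dKO effect of 2 of the genes differed between the Jak2 backgrounds by a test of the difference itself. For Acss2 the effect in Jak2V617F minus that in Jak2WT was 0.69 on the log2 scale (SE 0.175, limma adjusted p = 0.0488), and 0.56 to 0.82 with each library left out. For Srebf1 it was 0.65 (SE 0.14, limma adjusted p = 0.0324), and 0.56 to 0.74 with each library left out. Across the settings tried, Acss2 had adjusted p-values of 0.0153 to 0.154 and Srebf1 of 0.0113 to 0.121.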

How the results depend on the processing

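The 4 decreases of Scd2, the 2 decreases of Elovl5 in Jak2V617F and the increase of Fasn with dKO in Jak2V617F kept their direction and stayed past the threshold at all alternatives tried. With no filter on low values, 2 of the 9 genes were called lower with dKO in Jak2WT (4 with the filter) and 0 by the interaction (2 with it). The other pathway genes called were 5 with dKO in Jak2WT (9 with it) and 2 by the interaction (4 with it). Over all 25788 genes tested at this setting, 402 were called higher and 312 lower with dKO in Jak2WT, and 165 and 181 by the interaction. With libraries scaled to the same total, 2 genes were called higher with dKO in Jak2V617F and 6 by the interaction, and the pathway genes called were 19 with dKO in Jak2WT and 7 by the interaction. The same scaling moved the split of all genes called higher and lower from 901 and 716 to 706 and 1378 with dKO in Jak2WT, from 1614 and 1919 to 2192 and 1452 with dKO in Jak2V617F, from 1812 and 1765 to 1223 and 2930 with Jak2V617F among GLUT1/3 WT clones, and from 558 and 698 to 1177 and 393 for the interaction. Limma-voom called 4 genes by the interaction and 17 pathway genes with dKO in Jak2WT. Over all genes it called 790 higher and 1000 lower by the interaction, and 1341 and 1051 with dKO in Jak2WT. A pseudocount of 0.1 and the fit without a trend each called 1 by the interaction, with Acss2 lost. Fits of only the groups compared called 7 pathway genes with dKO in Jak2V617F and 8 with Jak2V617F among dKO clones. The replicate block, although libraries share only a clone number (correlations of same-numbered deviations from -0.254 to 0.152), called 1 gene by the interaction (Acss2 was lost), moved the calls over all genes with dKO in Jak2WT from 901 and 716 to 742 and 581, and changed no other count of the 10 genes by over 1.5 times. With the numbers of the Jak2V617F GLUT1/3 WT clones exchanged, an alternative chosen after seeing the data, the block called 1736 genes higher and 1700 lower with Jak2V617F among GLUT1/3 WT clones, beside 1708 and 1647 with the numbers as labelled.

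With each library left out, which assumes that the lone clone of a group varies like the others, the genes called lower were 1 to 5 with dKO in Jak2WT and 1 to 2 with dKO in Jak2V617F, and those called by the interaction 0 to 1. The pathway genes called were 0 to 11 with dKO in Jak2WT, 7 to 19 with Jak2V617F among GLUT1/3 WT clones, 1 to 14 with Jak2V617F among dKO clones and 0 to 4 by the interaction. Over all genes the calls fell too when a Jak2WT library was left out, both with dKO in Jak2WT and by the interaction. These counts are therefore not to be read against the shares of all genes in the main fit. Differences that were not past the threshold changed sign in these fits for Fasn with dKO in Jak2WT (-0.0485 to 0.3096) and with Jak2V617F among dKO clones (-0.0678 to 0.2902), and with dKO in Jak2V617F for Acly (-0.1049 to 0.1536) and Elovl6 (-0.189 to 0.362), and with the scaling to the same total for Elovl5 (0.0017). For Acly the value was -0.1049 without GLUT1/3 WT clone 3 and -0.0489 without dKO clone 3, and for Elovl6 -0.0171 and -0.189. Except where fewer libraries or more genes enter a test by construction, the cause was not tested. Depth did not limit the 9 genes tested, which had at least 1224 reads in every library, and limits Scd1 to the bound given.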
